A study of Mus musculus with 5 samples.

Results

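The 8 genes described here are transcription factor genes of the core mesoderm of the pharyngeal arches and of the muscle lineage that forms from it: Tbx1, Tcf21, Lhx2, Isl1, Msc, Myf5, Myod1 and Nkx2-5. They were taken by symbol from a count table of 23441 gene rows, and all 8 were found. The data are 2 dCKO and 3 control libraries of poly(A) RNA, made from mandibles of mouse embryos of embryonic day 10.5. The dCKO embryos were Wnt1Cre; Yapf/f, Tazf/f on a C57BL/6J x CBA/J; 129SvEv background, and the controls were Yapf/f, Tazf/f on 129SvEv, so both groups carried the floxed alleles, while genotype and strain background cannot be told apart. Wnt1Cre acts in the neural crest, which forms most of the arch mesenchyme, and not in the mesodermal core. The libraries are of bulk tissue, so no read of the 8 genes is assigned to a cell type. Whether each library is a separate embryo, a litter or a pool is not given in the labels, so p-values cover only the spread among these 5 samples, which may be technical.

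The core of the first arch holds head mesoderm that later forms the muscles of mastication, and it is surrounded by neural crest mesenchyme and covered by epithelium. In mouse, Tbx1, Tcf21, Msc, Lhx2 and Isl1 act in this mesoderm before the muscle determination genes Myf5 and Myod1, and Nkx2-5 marks cells shared with the heart lineage. Several of the 8 genes are also active outside the core, Tbx1, Isl1 and Nkx2-5 in pharyngeal endoderm among other sites, so a bulk value does not belong to the mesoderm alone.

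Library totals were 11346480 and 13298973 counts in the dCKO libraries and ran from 6491137 to 7439419 in the controls. The targeted genes checked the labels: Yap1 and Wwtr1, the symbol of Taz, were lower in both dCKO libraries than in any control (by −1.33 and −1.31 on the log2 scale, edgeR adjusted p = 1.31e-05 and 1.56e-04). Embryonic globins took 7.43% and 5.30% of counts in the dCKO libraries and 0.334% to 0.441% in the controls. Control replicate 3 stood apart among the controls. It differed from control replicates 1 and 2 by a chi-square per gene of 8.99 and 7.87, against 4.28 between control replicates 1 and 2. The value between the dCKO replicates was 13.4. This measure rises with depth and the dCKO libraries were deeper, so their value is not comparable with those of the controls. Control replicate 3 held 5.50 CPM of Hand1, a gene of the distal arch, against 87.9 and 91.6 CPM in control replicates 1 and 2 (CPM are read counts scaled to library size corrected by TMM, the trimmed mean of M values, and are the unit of every level given here). Results that rest on control replicate 3 are given with and without it.

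As a group, the regulators lay higher in dCKO than in control tissue, but no single one passed the test. Of the 8, 7 had enough counts to be tested and 6 of these were higher, with a median log2 fold change of 0.73, beside a median of −0.00 and 49.9% of genes higher over all 12710 genes tested. By edgeR's quasi-likelihood test with Benjamini-Hochberg adjustment over all genes (adjusted p below 0.05), 0 of the 7 were called, where 6.42% of all tested genes were. At an unadjusted p below 0.05 there were 3 of the 7 (Tbx1, Tcf21 and Lhx2), against 21.5% of all tested genes. The groups did not overlap for Tbx1, Tcf21 and Myod1, or 3 of the 7, against 37.6% of all tested genes. Myod1 passed the filter on low counts only through the dCKO libraries, where it was high. Its place among the higher and the non-overlapping genes was thus partly fixed by the filter. DESeq2 called 0 of 8, where it called 6.1% of all genes, and limma-voom 1 of 7, which was Lhx2, where it called 6.86%. Summed over the 8 genes, levels were 91.7 and 74.1 CPM in the dCKO libraries and 54.4, 50.0 and 62.0 CPM in control replicates 1, 2 and 3. Every dCKO library thus lay above every control in the sum. The largest mean differences in it were those of Lhx2 (30.0 CPM in dCKO and 18.5 CPM in control tissue) and Tbx1 (17.6 and 10.6 CPM). The 8 genes were chosen with earlier results of these data known. In bulk tissue, more cells of a type and more RNA per cell cannot be told apart.

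**Figure D1:**
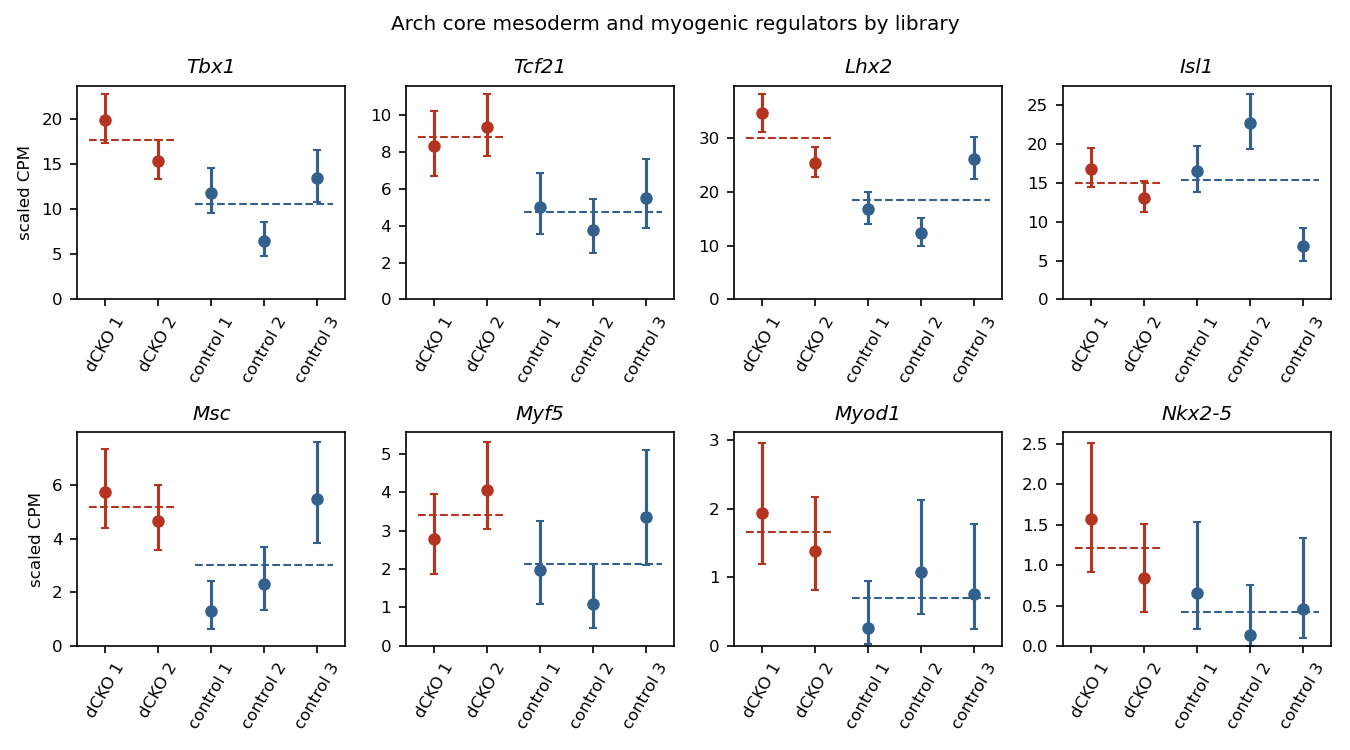
Scaled CPM of each of the 8 genes (vertical axes, from 0, each with its own scale) in the 2 dCKO libraries (left, red) and the 3 control libraries (blue), with exact Poisson 95% intervals that cover counting error only and dashed group means. Control replicate 3 reached 26.1 CPM of Lhx2 and 5.50 CPM of Msc, each between the 2 dCKO values, and had the lowest Isl1 of all libraries, 6.87 CPM.

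Tbx1 encodes a T-box factor needed for the branchiomeric muscles and for other pharyngeal derivatives. It measured 19.9 and 15.3 CPM in dCKO replicates 1 and 2, against 11.8, 6.49 and 13.4 CPM in control replicates 1, 2 and 3. Both dCKO libraries exceeded every control, a pattern in this direction that 19.0% of all tested genes showed. The means were 17.6 ± 3.22 CPM in dCKO (SD, n = 2) and 10.6 ± 3.64 CPM in control tissue (SD, n = 3). The log2 fold change was 0.73 (SE 0.25, 95% interval 0.20 to 1.26, edgeR adjusted p = 0.0945).

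Tcf21, also called capsulin, encodes a basic helix-loop-helix (bHLH) factor that in mouse acts together with Msc at the start of the jaw muscle lineage. It had 8.32 and 9.34 CPM in the dCKO libraries, against 4.99, 3.79 and 5.50 CPM in the controls. Here too the groups did not overlap, and the values within each group lay close together. The log2 fold change was 0.90 (SE 0.28, 95% interval 0.31 to 1.48), and its edgeR adjusted p of 0.0642 was the lowest of the 7. Msc, which encodes the related factor MyoR, had 5.73 and 4.67 CPM in dCKO and 1.31, 2.30 and 5.50 CPM in control tissue. Its groups overlapped through control replicate 3 alone, whose counting interval (3.85 to 7.61 CPM) did not reach those of control replicates 1 (0.63 to 2.42) and 2 (1.34 to 3.68). Msc did not pass (log2 fold change 0.80, SE 0.44, edgeR adjusted p = 0.302).

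Lhx2 and Isl1 both encode LIM homeodomain factors. Lhx2 had 34.7 and 25.4 CPM in the dCKO libraries and 16.8, 12.4 and 26.1 CPM in the controls. Control replicate 3 lay just above dCKO replicate 2, so the groups overlapped. Its log2 fold change was 0.71 (SE 0.23, 95% interval 0.22 to 1.20, edgeR adjusted p = 0.0809). Isl1 was the 1 tested gene without a higher mean in dCKO tissue, at 16.8 and 13.1 CPM in dCKO and 16.6, 22.7 and 6.87 CPM in control libraries. The controls spanned both sides of the dCKO values. The fitted difference was −0.05 on the log2 scale (SE 0.31, edgeR adjusted p = 0.941), with a 95% interval of −0.70 to 0.59, which does not show that the level was the same. Whether Isl1 differed from the other 6 in its response was not tested.

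The bases before the start sites of Tbx1 and Lhx2 are shown because these are the genes with an unadjusted p below 0.05 whose outer window in the table holds no annotated exon. They are RefSeq sequences of GRCm38.p6, a later build than the mm9 of the counts, printed 5′ to 3′ on the gene's strand and ending at the base before the start site. Of 2 windows that the table gives for each gene, the outer one is shown. The inner Lhx2 window, not shown, overlaps an annotated exon of Lhx2. The inner Tbx1 window, also not shown, overlaps no annotated exon and holds 0 E-boxes. The Tbx1 window is chr16:18590672-18590921 (minus strand) and the Lhx2 window is chr2:38339031-38339280 (plus strand). Capitals mark matches to the E-box CANNTG, the core letters bound by bHLH factors.
Tbx1: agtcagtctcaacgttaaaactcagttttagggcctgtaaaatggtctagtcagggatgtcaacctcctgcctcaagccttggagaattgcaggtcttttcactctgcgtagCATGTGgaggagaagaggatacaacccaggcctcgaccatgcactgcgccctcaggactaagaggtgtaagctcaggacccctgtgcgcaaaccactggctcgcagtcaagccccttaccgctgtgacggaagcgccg
Lhx2: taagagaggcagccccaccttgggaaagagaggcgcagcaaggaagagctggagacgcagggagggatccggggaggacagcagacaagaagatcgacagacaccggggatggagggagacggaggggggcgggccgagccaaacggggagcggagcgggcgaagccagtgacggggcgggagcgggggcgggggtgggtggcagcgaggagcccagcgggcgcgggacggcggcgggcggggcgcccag
The Tbx1 window holds 1 E-box and the Lhx2 window 0. The TEAD letters GGAATG, bound by the partners of YAP and TAZ, and the T-box letters GGTGTG had 0 matches on either strand in either window. Over all 32851 promoter windows of 250 bases in the RefSeq table, 66.2% held an E-box, 12.6% the TEAD letters and 16.3% the T-box letters. Windows were found for 6 of the 8 genes, not for Msc and Myod1, and a match or its absence describes these letters only.

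The muscle determination genes were low in both groups at this stage. Myf5, the first of the myogenic bHLH factors to appear, had 2.77 and 4.06 CPM in dCKO libraries (30 and 53 reads) and 1.97, 1.08 and 3.36 CPM in controls (15, 8 and 22 reads). Control replicate 3 again lay between the dCKO values. The log2 fold change of 0.70 had an SE of 0.46 and did not pass (edgeR adjusted p = 0.398). Myod1, which commits cells to skeletal muscle, had 1.94 and 1.38 CPM in dCKO libraries (21 and 18 reads), against 0.263, 1.08 and 0.764 CPM in controls (2, 8 and 5 reads). The groups did not overlap, but counting intervals did: 0.817 to 2.18 CPM in dCKO replicate 2 and 0.467 to 2.13 CPM in control replicate 2. Its log2 fold change was the largest of the 7 and the least certain, at 1.22 (SE 0.61, 95% interval −0.06 to 2.51, edgeR adjusted p = 0.259). As Myod1 passed the filter on low counts only through the dCKO libraries, this rank was partly fixed by the filter.

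Nkx2-5, a homeobox gene of cardiac and pharyngeal progenitors, was filtered out for low counts. It had 17 and 11 reads in dCKO libraries and 5, 1 and 3 in controls, or 1.57 and 0.842 CPM in dCKO against 0.657, 0.135 and 0.458 CPM in control libraries. Both dCKO libraries lay above every control, a pattern that 19.0% of all tested genes showed. Counting intervals overlapped, with 0.4205 to 1.507 CPM in dCKO replicate 2 and 0.2133 to 1.533 CPM in control replicate 1. With no filter on low counts the log2 fold change of Nkx2-5 was 1.49 (SE 0.82, 95% interval −0.11 to 3.09, edgeR adjusted p = 0.348). The 15 genes of a heart muscle list summed to 30.4 and 27.1 CPM in the dCKO libraries, against 76.7, 21.1 and 22.3 CPM in control replicates 1, 2 and 3. The dCKO sums thus lay above control replicates 2 and 3 and below control replicate 1, which held 28.5 CPM of Myl2, a ventricular myosin light chain gene. Myl2 was at 1.39 and 1.07 CPM in the dCKO libraries, and Nppa, an atrial peptide gene, had no reads in any control. The part of heart muscle cells in the Nkx2-5 level was not tested.

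**Figure D2:**
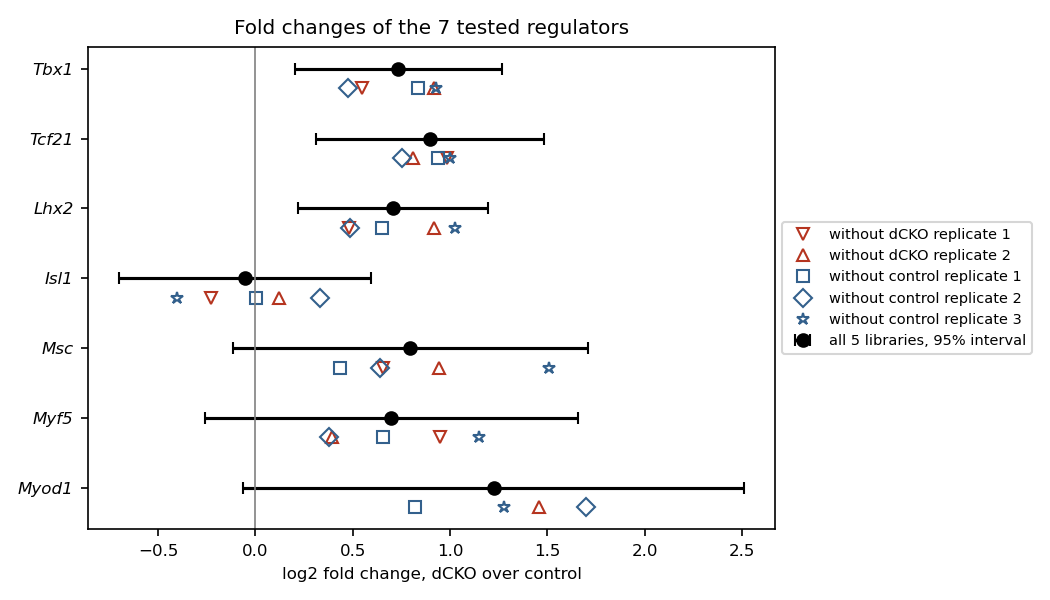
Log2 fold change of dCKO over control (horizontal axis) for the 7 tested genes, as black points with 95% intervals from all 5 libraries, and as open symbols below them with 1 library left out. The star, without control replicate 3, lies at 1.02 for Lhx2 and 1.51 for Msc, to the right of their values of 0.71 and 0.80 with all libraries.

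Which of the regulators passed depended on control replicate 3, and with all 5 libraries also on the filter, the depth and the tool. With all 5, Tbx1, Tcf21 and Lhx2 passed with no filter on low counts (edgeR adjusted p = 0.0183, 0.0331 and 0.00375), Tcf21 with libraries thinned to the smallest total (edgeR adjusted p = 0.0395) and Lhx2 with limma-voom (adjusted p = 0.0479). Without control replicate 3, Tbx1, Tcf21, Lhx2 and Msc were called higher, with log2 fold changes of 0.93, 0.998, 1.02 and 1.51 and edgeR adjusted p of 0.0405, 0.0416, 0.00796 and 0.0323. The share of all genes called was then 12.7%, with 1637 genes. Myf5 and Myod1 did not pass there, and Isl1 was at −0.40. With any other single library left out, 0 were called, and in those fits edgeR called between 442 and 634 of all genes. Leaving out control replicate 2 took Tbx1, Lhx2 and Myf5 to 0.48, 0.49 and 0.38, and leaving out control replicate 1 took Msc to 0.43. Leaving out dCKO replicate 1 took Tbx1 and Lhx2 to 0.55 and 0.48, and leaving out dCKO replicate 2 took Myf5 to 0.39. The 4 calls without control replicate 3 rest on 2 libraries a group.

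The size of several differences also moved with base composition. The longest annotated transcripts of Tbx1, Lhx2, Msc and Myod1 have a GC content of 62.8%, 58.5%, 58.2% and 59.0%, and those of Tcf21, Isl1 and Myf5 of 49.9%, 45.7% and 41.6%. With the trend on GC content taken out of each library, the log2 fold changes were 0.39 for Tbx1, 0.39 for Lhx2, 0.50 for Msc and 0.90 for Myod1, each smaller than before. Tcf21, Isl1 and Myf5 were then at 0.80, −0.01 and 0.80. None passed there (edgeR adjusted p from 0.0800 for Tcf21 to 0.99 for Isl1), where 1054 genes were called in all and the median of all genes was −0.10. Of the 3 genes with an unadjusted p below 0.05, Tcf21 changed least.

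Per kilobase of each gene's longest transcript in GENCODE M21, the order of mean levels in dCKO tissue was Lhx2 (10.6 CPM per kb), Tbx1 (7.01), Isl1 (5.94), Tcf21 (4.94), Msc (2.99), Myf5 (1.64), Myod1 (0.892) and Nkx2-5 (0.791). In control tissue Lhx2 (6.50) was followed by Isl1 (6.12), Tbx1 (4.22), Tcf21 (2.66), Msc (1.75), Myf5 (1.03), Myod1 (0.378) and Nkx2-5 (0.273). Isl1 and Tbx1 exchanged places between the groups. Among the dCKO libraries the ranges of Tbx1 and Isl1, of Isl1 and Tcf21 and of Myod1 and Nkx2-5 overlapped. Among the controls each gene's range overlapped that of its neighbour in the order.

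**Figure D3:**
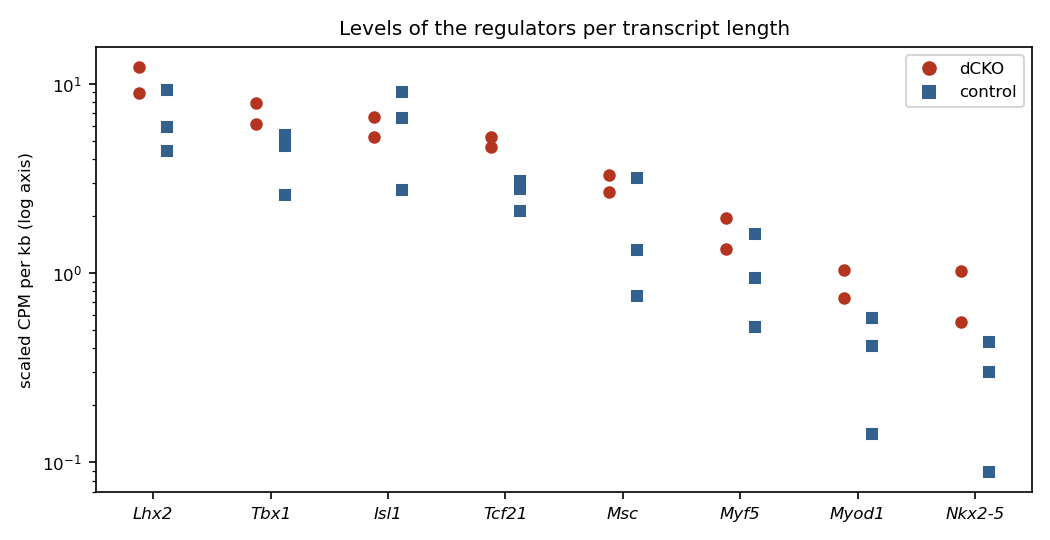
Scaled CPM per kilobase of longest transcript (vertical log axis) for the 8 genes in falling order of the dCKO mean, with 1 point per library, dCKO as red circles and control as blue squares. Lhx2, Tbx1, Isl1 and Tcf21 average 4.94 CPM per kb or more in dCKO tissue, and Myod1 and Nkx2-5 lie near or below 1 in every library.

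Ratios of raw reads between regulators of the same library do not depend on depth or scaling. Lhx2 had 1.74 and 1.66 reads per Tbx1 read in dCKO libraries, against 1.42, 1.92 and 1.94 in controls, and Tcf21 had 0.419 and 0.61 in dCKO libraries, against 0.422, 0.583 and 0.409 in controls. In neither ratio did the groups separate. Isl1 had 0.847 and 0.855 reads per Tbx1 read in dCKO libraries, against 1.40, 3.50 and 0.511 in controls, where control replicate 3 lay below and the others above the dCKO values. Myf5 had 0.333 and 0.434 reads per Tcf21 read in dCKO libraries and 0.395, 0.286 and 0.611 in controls, and these values overlapped as well.

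In the authors' deposited table, the log2 fold changes of dCKO over control, headed WT there, were 0.75 for Tbx1, 0.89 for Tcf21, 0.73 for Lhx2, −0.02 for Isl1, 0.77 for Msc, 0.65 for Myf5, 1.08 for Myod1 and 1.24 for Nkx2-5. The lowest adjusted p of the 8 in the authors' deposited table was 0.152, for Tcf21.

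A list of other genes of the arch core and heart field lineage had a median near that of all genes. It shares Hand2 with the neural crest mesenchyme list below, and in bulk tissue its levels do not belong to the core alone. Of 22 listed genes 17 were tested, and 0 rose and 2 fell (median log2 fold change −0.05). The 2 were Ebf2 and Ebf3, EBF family factors that are also active in connective tissue lineages. Ebf2 had 8.87 and 7.50 CPM in dCKO libraries, against 13.1, 20.2 and 15.1 CPM in controls (log2 fold change −0.98, SE 0.24, edgeR adjusted p = 0.0144). Ebf3 had 113 and 131 CPM in dCKO libraries, against 183, 156 and 161 CPM in controls (log2 fold change −0.45, SE 0.13, edgeR adjusted p = 0.0408). Ebf2 lost its call without control replicate 2 or either dCKO library (edgeR adjusted p up to 0.148), and Ebf3 when control replicate 1 or 2 or either dCKO library was absent (up to 0.381).

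Most genes of the later skeletal muscle programme were too low to test. Of 26 listed genes 25 were in the table and 10 had enough counts to be tested. Myf6 had no reads in any library, and Myog, the gene of the differentiation factor myogenin, stayed at or below 0.766 CPM in dCKO and 0.541 CPM in control libraries. By edgeR 0 of the 10 were called, as by DESeq2 and limma-voom, and 3 had an unadjusted p below 0.05 (Tnnt1, Myom1 and Cdh15), with a median log2 fold change of 0.19. Tnnt1, the slow skeletal troponin T gene, had 6.28 and 6.66 CPM in dCKO and 4.204, 2.84 and 3.67 CPM in control libraries (log2 fold change 0.86, SE 0.32, edgeR adjusted p = 0.119). Cdh15, the M-cadherin gene of myoblasts, had 5.73 and 4.14 CPM in dCKO libraries, against 1.84, 2.84 and 3.67 CPM in controls (log2 fold change 0.83, SE 0.38, edgeR adjusted p = 0.208). In both, the dCKO libraries lay above every control, as in 19.0% of all tested genes. Of the 10 tested muscle genes 7 were higher in dCKO tissue and the others lower. The whole list summed to 84.5 and 95.3 CPM in dCKO libraries, against 103.5, 74.1 and 54.5 CPM in control replicates 1, 2 and 3, so the sums overlapped.

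Of 15 tested bHLH partners and inhibitors edgeR called 0, as did limma-voom, while DESeq2 called 1 as lower (Tcf4), and 4 had an unadjusted p below 0.05 by edgeR. Mdfi, whose product I-mfa inhibits myogenic bHLH factors, had 116 and 127 CPM in dCKO libraries, against 72.0, 100.5 and 96.7 CPM in controls (log2 fold change 0.44, SE 0.14, edgeR adjusted p = 0.0696). Tcf12, an E protein that pairs with them on DNA, had 356 and 385 CPM in dCKO libraries, against 535, 473 and 414 CPM in controls (log2 fold change −0.36, SE 0.12, edgeR adjusted p = 0.0882). Mdfi passed without control replicate 2 or 3 and Tcf12 without control replicate 3 (edgeR adjusted p = 0.0432, 0.0437 and 0.0145). Id3, an inhibitor that binds E proteins, had 282 and 217 CPM in dCKO libraries, against 327, 313 and 283 CPM in controls (log2 fold change −0.30, SE 0.13, edgeR adjusted p = 0.177). With the GC trend removed, Mdfi was at 0.10 on the log2 scale, and Id3 was called lower at −0.59 (edgeR adjusted p = 0.00834). With the replicate block, Id3, Tcf12 and Tcf4 were called lower at −0.37, −0.44 and −0.32 (edgeR adjusted p = 0.0302, 0.0102 and 0.0475). Mdfi was called higher there at 0.51 (edgeR adjusted p = 0.00689). Mdfi and Tcf12 also passed with no filter on low counts (edgeR adjusted p = 0.0162 and 0.0485), and Tcf12 and Tcf4 with total-count scaling (edgeR adjusted p = 0.0404 and 0.0421).

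Among 15 tested LIM, NK and T-box partners and relatives, 2 rose and 0 fell (median log2 fold change 0.24). Lmo2, a LIM-only gene best known from blood and endothelial progenitors, had 25.2 and 24.6 CPM in dCKO libraries, against 11.3, 16.5 and 6.26 CPM in controls (log2 fold change 1.12, SE 0.26, edgeR adjusted p = 0.0101). In the same libraries all 10 tested red blood cell genes rose (median of 4.11 on the log2 scale), and their list had sums of 79881 and 55663 CPM in dCKO against 3412 to 4422 CPM in control libraries. The part of blood cells in the Lmo2 level was not tested. Nkx2-3, an NK homeobox gene of pharyngeal endoderm, had 19.6 and 20.1 CPM in dCKO libraries, against 10.5, 12.7 and 11.9 CPM in controls (log2 fold change 0.76, SE 0.19, edgeR adjusted p = 0.0213). Lmo2 and Nkx2-3 both lost their calls without control replicate 1 or either dCKO library (edgeR adjusted p up to 0.0823 and 0.132), and with the GC trend removed (0.0511 for Lmo2 at a log2 fold change of 0.88, and 0.168 for Nkx2-3 at 0.42). Ldb1, the cofactor that LIM homeodomain proteins share, had a log2 fold change of 0.36, with an SE of 0.12 and an edgeR adjusted p of 0.0849, and passed without control replicate 3 (0.47, edgeR adjusted p = 0.0103), but was at 0.04 with the GC trend removed. With that trend removed, 0 of the 15 rose and 1 fell, which was Lhx8. In the main fit Lhx8 was at −0.315 on the log2 scale and was not called (edgeR adjusted p = 0.169).

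Epithelial transcripts lay higher in the same dCKO libraries as the regulators. Of 20 listed genes of pharyngeal epithelium and endoderm 19 were tested, 4 rose and 0 fell, and the median log2 fold change was 0.50. The list summed to 713 and 699 CPM in dCKO libraries, against 490, 601 and 461 CPM in controls, and none of the 20 was at 0 in all libraries. Krt19, a keratin gene of simple epithelium, had 34.7 and 34.2 CPM in dCKO libraries, against 18.1, 16.6 and 20.3 CPM in controls (log2 fold change 0.91, SE 0.16, edgeR adjusted p = 0.00122). Foxe1, a forkhead gene of pharyngeal endoderm and oral ectoderm, had 11.2 and 9.88 CPM in dCKO libraries, against 3.55, 6.76 and 5.50 CPM in controls (log2 fold change 0.998, SE 0.28, edgeR adjusted p = 0.0407). Krt8 and Krt18, keratin genes that pair in simple epithelium, had log2 fold changes of 0.67 and 0.50 (edgeR adjusted p = 0.00519 and 0.0322). Foxe1 lost its call without control replicate 1 or either dCKO library (edgeR adjusted p up to 0.284), with total-count scaling (0.0543) and with DESeq2 (adjusted p = 0.0719). Krt18 lost its call when any library but control replicate 2 was left out (edgeR adjusted p up to 0.364) and with total-count scaling (0.0668), and Krt8 without dCKO replicate 2 (0.067). With the GC trend removed, Krt19 was called at 0.59 (edgeR adjusted p = 0.0232) while Foxe1 at 0.66, Krt8 at 0.35 and Krt18 at 0.19 were not (edgeR adjusted p = 0.149, 0.156 and 0.416). Trp63, not called in the main fit, was called higher there. The part of the epithelium in the levels of Tbx1, Isl1, Lhx2 and Nkx2-5 was not tested.

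The other cell types of the arch had medians closer to that of all genes. Of 18 neural crest mesenchyme genes 2 rose and 3 fell, with a median log2 fold change of −0.00 and sums of 2678 and 2826 CPM in dCKO libraries against 2821 to 3045 CPM in controls. With the GC trend removed 0 of these 18 rose and 5 fell. Of 11 tested endothelial genes 1 rose, which was Cldn5 (log2 fold change 0.64, SE 0.18, edgeR adjusted p = 0.0428), and the sums of 325 and 371 CPM in dCKO libraries overlapped the 293 to 331 CPM of controls. Without dCKO replicate 1 or control replicate 1 or 2, with thinned libraries, with total-count scaling or with the GC trend removed, Cldn5 did not pass (edgeR adjusted p up to 0.442), nor by DESeq2 (adjusted p = 0.0629). Cranial sensory neurons, another site of Isl1, were near the limit of detection, with 3 of 15 genes tested and sums of 22.9 and 24.5 CPM in dCKO libraries against 13.5 to 21.5 CPM in controls. Their most abundant gene, Tubb3, had 14.9 and 17.0 CPM in dCKO libraries, against 8.93, 7.71 and 15.3 CPM in controls, and did not pass (edgeR adjusted p = 0.177). It did pass without control replicate 3 (0.93, edgeR adjusted p = 0.0165). Of 8 tested heart muscle genes Hopx rose and Myl2 fell, the second not by DESeq2 or limma-voom, nor without control replicate 1 or either dCKO library (edgeR adjusted p up to 0.789). Hopx, which is active in several epithelia too, had 10.8 and 10.1 CPM in dCKO libraries, against 5.78, 3.79 and 3.97 CPM in controls (log2 fold change 1.20, SE 0.28, edgeR adjusted p = 0.0101), and did not pass without either dCKO library (up to 0.117).

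**Figure D4:**
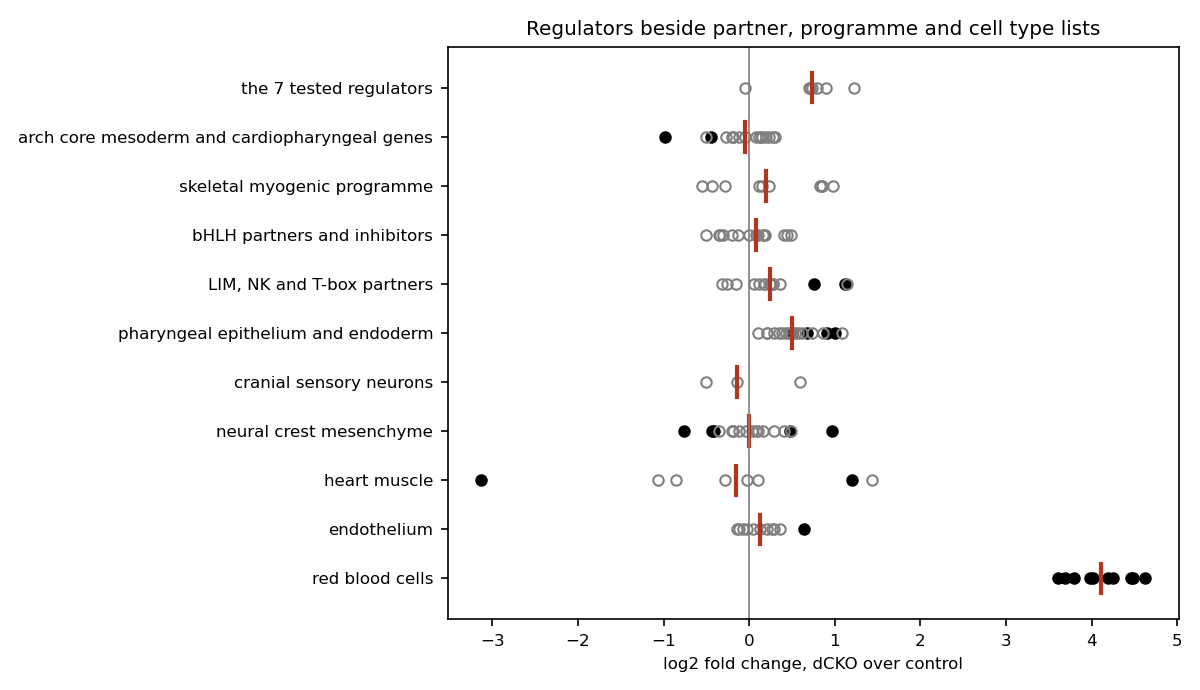
Log2 fold change of dCKO over control (horizontal axis) of every tested gene of the 7 regulators and of 10 lists (rows), filled where the edgeR adjusted p was below 0.05, with red bars at the medians. The regulators have a median of 0.73 and no filled point, the epithelial list a median of 0.50 with 4 filled points, and the red blood cell list lies far to the right at 4.11.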

How the data were processed

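The authors deposited whole-number read counts per gene symbol, per the file headers. HTSeq 0.5.4p3, DESeq 1.16.0 and mm9 are named, per the submitters' processing notes. No aligner, annotation, counting mode or strand setting is given in the sources used here. Reads of overlapping or antisense genes may therefore be mixed. A second table that the authors deposited is their own comparison, with a signal (mean normalized counts), a fold change as a ratio, its log2 value and a p-value per gene, with settings not given. Count columns headed WT were matched to the control titles on the replicate number.

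Counts were analysed in R 4.3.3 with edgeR 4.0.16: filterByExpr (minimum count 10, minimum total count 15) left 12710 of 23441 genes, TMM set the scaling, and the 2 dCKO libraries were set against the 3 controls by the two-sided quasi-likelihood F test, with Benjamini-Hochberg adjustment over all genes tested and a threshold of 0.05. Standard errors come from the log2 fold change and F of that test. Poisson 95% intervals cover counting error only. Alternatives included DESeq2 1.42.0 and limma-voom (limma 3.58.1). Within a group, chi-square per gene between libraries was 4.28 to 13.4, above sampling noise, and none was merged.

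The 8 genes and the 10 lists were chosen with earlier results of these data known. Beyond the 8, genes named were up to 4 per list, those of smallest p, and others past the threshold, with Yap1, Wwtr1 and the globins as checks. Hand1, Lhx8, Myf6, Myog, Nppa and Trp63 were named after their values were seen, and Hand2 as a gene shared between lists. Single values of a few listed genes are not reported here.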

Additional observations from a re-analysis of the deposited data

How the results depend on the processing

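Direction held for Tbx1, Tcf21, Lhx2, Msc, Myf5 and Myod1 under every alternative in which they had a value. Isl1 turned to log2 fold changes of 0.061 with limma-voom, 0.0059 with libraries thinned to the smallest total, 0.12 without dCKO replicate 2, 0.0012 without control replicate 1 and 0.33 without control replicate 2, and did not pass in any; with single libraries left out it ranged from −0.40 to 0.33. Of the 8 genes, 1 passed with limma-voom (Lhx2), 3 with no filter on low counts (Tbx1, Tcf21 and Lhx2, where 18611 genes were tested and 6.21% called), 1 with thinned libraries (Tcf21) and 0 with RLE or total-count scaling, with red blood cell genes removed before scaling, with DESeq2, with the stricter filter (4 of the 8 kept) or with the trend with GC content removed. Without that trend the median log2 fold change of the 7 was 0.50 and that of all genes −0.10. With single libraries left out, 0 to 4 of the 8 and 442 to 1637 of all genes passed.

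Whether the replicate numbers pair the libraries is not given in the labels. Deviations of replicates 1 and of replicates 2 from their group means correlated at 0.084 and −0.0042 over 12710 genes. With 2 dCKO libraries, the deviations of dCKO replicate 1 mirror those of dCKO replicate 2, so these values cannot decide whether the libraries are paired. With the replicate block, in which control replicate 3 has no partner and adds nothing to the comparison, 2121 genes and 4 of the 8 passed (Tbx1, Tcf21, Lhx2 and Msc), and with the replicate block and the GC trend removed 1725 and 2 (Tcf21 and Lhx2), against 816 and 0 with neither. Depth limits Myod1 and Nkx2-5, at 1 to 8 reads in each control.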
